A study of Mus musculus with 4 samples.

Results

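The genes described here are 38 symbols that encode glycolytic enzymes, their regulators, proteins that move or convert lactate and pyruvate, and the oxygen-sensing factors with some of their targets. They were chosen by name with earlier results of these data known, as were the further lists below. Shares called in the group and in those lists are therefore descriptions and not tests. All 38 symbols were among the 33641 genes of the tables. Of these, 37 had a mean of at least 1 TPM over all libraries and were tested; Egln3, the gene of an inducible oxygen sensor, had between 0.745 and 1.18 TPM and was not. TPM is a transcript level per length of transcript, scaled to a fixed total in each library.

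Primary fibroblasts came from the hearts of wild-type C57BL/6J mice 12 weeks of age. The labels give 2 libraries for vehicle control (Vehicle 1 and 2) and 2 for 10 ng/ml TGFbeta (TGFbeta 1 and 2), the cytokine under which fibroblasts become contractile myofibroblasts rich in matrix. All 4 libraries share uptake of 4-thiouridine, a uridine analogue, at 20 and 4 h before crosslinking with light of 368 nm. By the design text the RNA was bound to HuR, which stabilises transcripts with U-rich 3′ ends, while the labels speak of total RNA. Which of these the libraries hold is not known, so the values are reported as RNA levels in the libraries only. If the RNA was HuR-bound, changes and shares between genes could also reflect binding to HuR. Transcript level and binding cannot be told apart here.

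Glycolysis splits glucose into pyruvate and yields ATP without oxygen. Lactate dehydrogenase turns pyruvate into lactate, and pyruvate dehydrogenase kinases hold pyruvate back from the mitochondria. The HIF alpha subunits are hydroxylated and degraded when oxygen is plentiful; when oxygen is scarce they pair with Arnt and raise the transcription of glycolytic and other genes. Activated fibroblasts are known for active glycolysis.

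With TGFbeta, limma (Benjamini-Hochberg adjusted p under 0.05 over 15815 tested genes) called 4 of the 37 tested genes lower: Epas1, Eno2, Pfkm and Pdk2. This is 10.8% of the tested genes of the group, against 4.38% of all tested genes called lower and 5.92% called in either direction. It called 0 higher, against 1.54% of all tested genes. At an unadjusted p under 0.05 limma had 2 higher, Hk2 and Slc2a1, against 5.98% of all tested genes, and 12 lower, against 18.5%. The abundant enzymes of the main route, Gapdh, Eno1, Pkm, Aldoa and Ldha, did not pass. The median log2 change was -0.19 over the 37 genes and -0.13 over all tested genes. Log2 changes are differences in mean log2(TPM + 1), with vehicle subtracted from TGFbeta. In all, 27 of the 37 log2 changes were below 0 (73.0%, against 64.8% of all tested genes). The 100 most abundant genes took 23.3% and 24.4% of TPM with vehicle and 29.8% and 27.0% with TGFbeta. Each library has a fixed total, so this share bears on the TPM of all other genes. Its part in the changes was not tested. The TGFbeta libraries both lay below both vehicle libraries for 19 genes, where 39.8% of all tested genes did so, and above them for 6, where 15.5% did. With a ratio of mean TPM of at least 1.5 as well, 8 genes were lower (15.2% of all tested genes) and 2 higher (5.08%). Every one of the 4 calls was lost with all genes above 0 in the test (14 of the group at an unadjusted p under 0.05). Limma called 0 of all 23602 tested genes in that setting. All 4 calls were also lost without Vehicle 1 and without Vehicle 2, fits that leave 1 vehicle library. The calls of all other tested genes were lost in each of these settings too. A loss in them, here and below, is therefore not particular to a gene. Without TGFbeta 1 and without TGFbeta 2, 1 call was left in each case, that of Epas1.

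**Figure D1:**
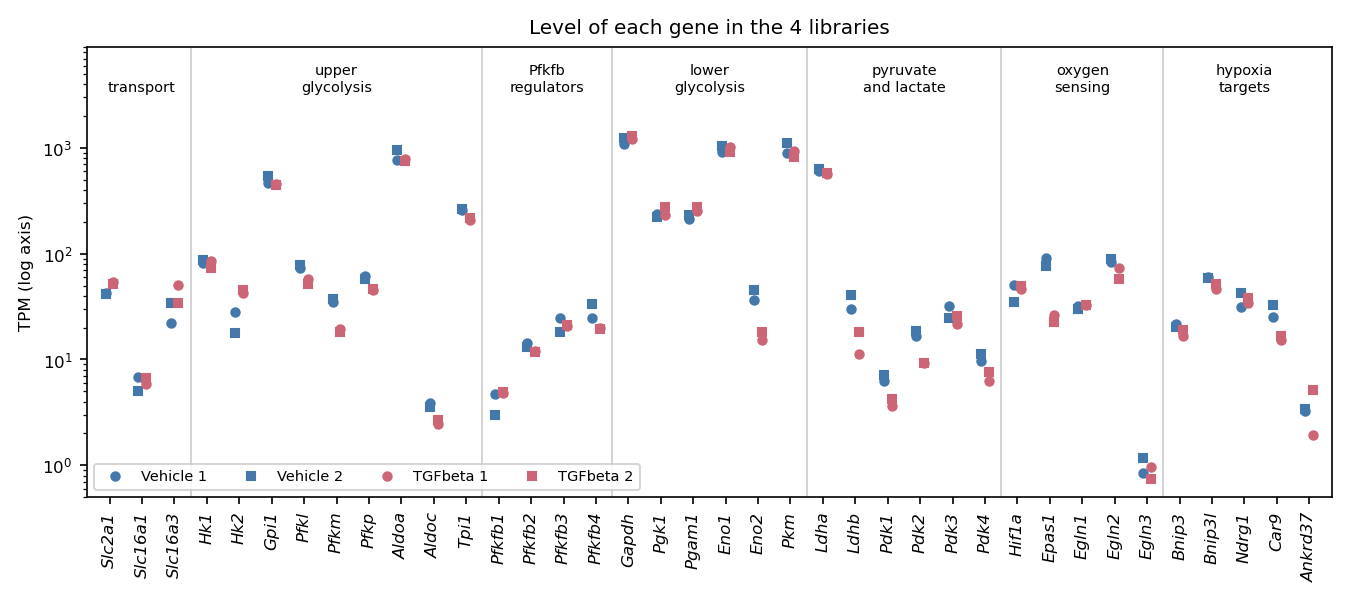
TPM of each of the 38 genes (log axis) in the 2 vehicle libraries (blue) and the 2 TGFbeta libraries (red); circles are replicate 1 and squares replicate 2. Levels run from under 1 TPM for Egln3 to 1292 TPM for Gapdh, and Epas1, Eno2 and Pfkm show the 2 colours apart.

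**Figure D2:**
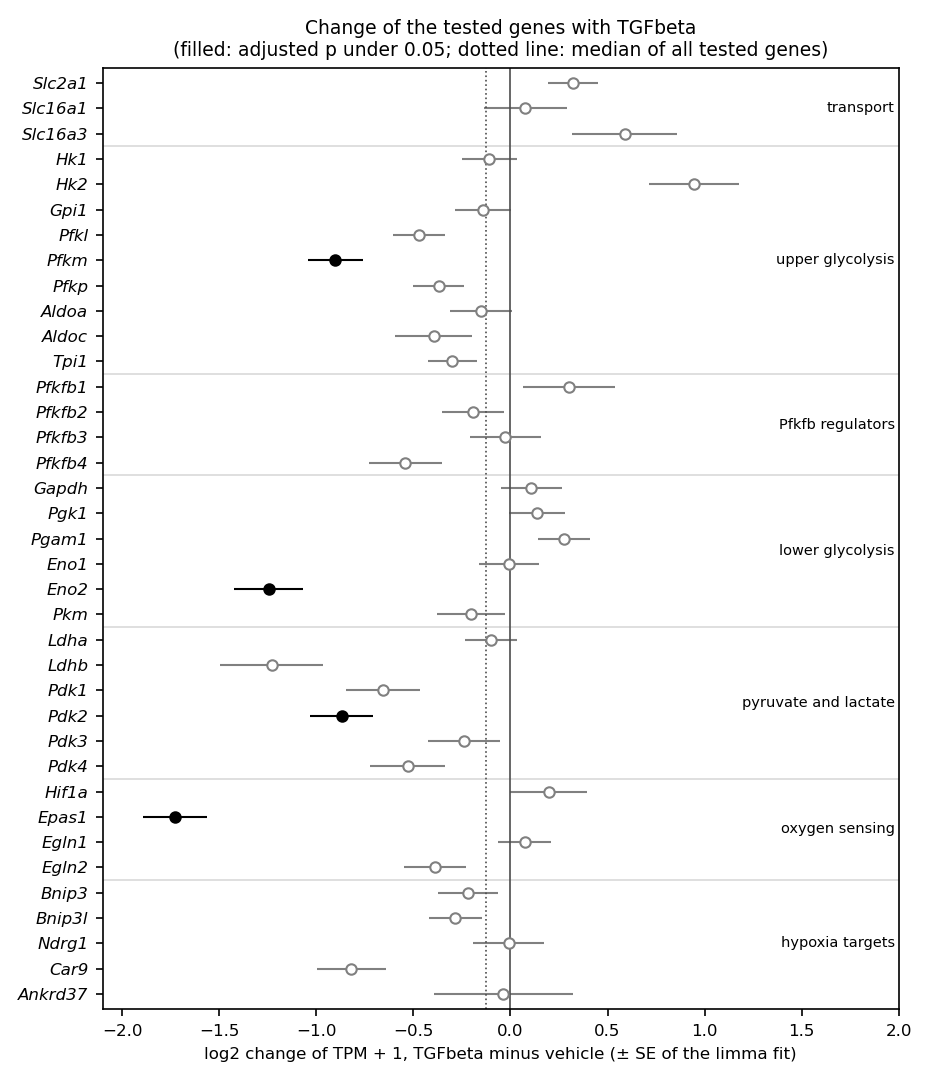
Log2 change of TPM + 1 (TGFbeta minus vehicle, with the SE of the limma fit) for the 37 tested genes, grouped by role. Filled points are the 4 genes with an adjusted p under 0.05; the dotted line is the median of all tested genes, -0.13.

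The labelled cell type was checked against its markers. All 8 fibroblast markers were detected. Of these 2 fell, 0 rose and 6 did not pass, where 4.38% of all tested genes were called lower and 1.54% higher. The median log2 change of the 8 was -0.41, against -0.13 over all tested genes. Those that fell were Pdgfra, a growth factor receptor gene (log2 change -1.42, limma adjusted p = 0.0106), and Tcf21, a transcription factor gene (-1.11, 0.0148). Of 5 myofibroblast markers 4 rose, among them Acta2, the smooth muscle actin gene (from 2160 and 2257 to 4730 and 4304 TPM). Markers of other cells were present at mixed levels. In the leukocyte list, Ptprc, the pan-leukocyte gene, lay between 1.05 and 1.35 TPM and Lyz2, a lysozyme gene, between 42.9 and 66.4 TPM. The 7 markers of that list summed to 74.0 and 92.4 TPM with vehicle and 60.9 and 64.98 TPM with TGFbeta. Of 6 erythroid markers 5 were listed at 0 in every library, while Alas2 had between 7.39 and 12.3 TPM. The 4 epicardial markers summed to 13.4 and 16.1 TPM with vehicle and 11.2 and 11.8 TPM with TGFbeta. Most of that was Upk3b, with 6.77 to 12.1 TPM.

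Epas1 encodes HIF-2 alpha, an oxygen-regulated transcription factor subunit (ENSMUSG00000024140.10, GRCm38 chr17:86753700-86833410, plus strand). Its level was 91.7 and 76.0 TPM with vehicle and 26.6 and 22.6 TPM with TGFbeta. Both TGFbeta values lay far under both vehicle values. The mean fell from 83.9 ± 11.1 to 24.6 ± 2.80 TPM (SD, n = 2 each), 3.41-fold lower, with a log2 change of -1.73 (SE 0.16, limma adjusted p = 0.00857). Without Vehicle 1 the log2 change of Epas1 was -1.59 (limma adjusted p = 0.0939), and without Vehicle 2 it was -1.86 (limma adjusted p = 0.0933).

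Endothelial cells and pericytes are known to express Epas1 strongly. The summed level of 6 endothelial markers was 69.1 and 72.0 TPM with vehicle and 56.0 and 49.6 TPM with TGFbeta. Of these, limma called 0 of 5 tested, where 5.92% of all tested genes were called. At an unadjusted p under 0.05, 2 were lower, where 18.5% of all tested genes were. They were Egfl7 (log2 change -0.78, limma adjusted p = 0.0599) and Cdh5 (-0.56, 0.139). The defining marker Pecam1 lay between 5.93 and 7.35 TPM, and Tek between 18.5 and 19.3 TPM. The 6 pericyte and smooth muscle markers summed to 94.1 and 102 TPM with vehicle and to 51.0 and 53.3 TPM with TGFbeta, mostly through Notch3, the 1 of 4 tested that was called (73.97 and 83.9 against 21.1 and 17.4 TPM). Cspg4 had 12.4 and 10.7 against 22.5 and 16.7 TPM (log2 change 0.70, limma adjusted p = 0.0964), and Rgs5 had 13.5 TPM in TGFbeta 2 against 1.95 to 2.47 TPM in the other libraries. Myh11 lay between 3.92 and 4.92 TPM, and Kcnj8 and Abcc9 stayed under 1 TPM. The part of these cells in the fall of Epas1 was not tested. In bulk samples, fewer cells of a type and less RNA per cell cannot be told apart.

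The sister gene Hif1a, for HIF-1 alpha, had 50.7 and 34.8 TPM with vehicle and 46.6 and 49.99 TPM with TGFbeta. The groups overlapped, and the log2 change of 0.20 (SE 0.20) did not pass (limma adjusted p = 0.604); it was -0.07 without Vehicle 2. Hif1a thus made up 35.6% and 31.4% of the summed TPM of the 2 genes with vehicle, and 63.7% and 68.9% with TGFbeta. The more abundant of the pair was Epas1 in both vehicle libraries and Hif1a in both TGFbeta libraries. The sum itself was 142 and 111 TPM with vehicle and 73.2 and 72.6 TPM with TGFbeta.

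The Egln genes encode the prolyl hydroxylases that mark HIF alpha for degradation. Egln1, the main one, had 31.7 and 30.02 TPM against 32.6 and 32.4 TPM, and did not pass (log2 change 0.07, SE 0.14, limma adjusted p = 0.791). Egln2 was the most abundant of the family in every library and had 83.3 and 88.4 against 73.5 and 58.1 TPM, a log2 change of -0.39 that did not pass (limma adjusted p = 0.202). Egln2 took 71.9% and 73.9% of the family's TPM with vehicle and 68.7% and 63.6% with TGFbeta.

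Beside these, a list of 15 tested partners of HIF held 1 call, lower, where 4.38% of all tested genes were called lower; a single call does not set the list apart. It was Arnt2, which encodes a dimer partner of HIF alpha, with 46.6 and 44.3 TPM with vehicle and 18.6 and 16.4 TPM with TGFbeta (log2 change -1.33, limma adjusted p = 0.0112). The common partner Arnt had 82.8 and 71.2 against 59.8 and 54.1 TPM (log2 change -0.43, limma adjusted p = 0.143), which missed the threshold, as did Vhl, the ubiquitin ligase subunit that binds hydroxylated HIF alpha (log2 change 0.10, limma adjusted p = 0.778). The call of Arnt2 was lost without either vehicle library, without TGFbeta 2 and when every gene above 0 was tested.

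Sugar enters through Slc2a1, the glucose transporter GLUT1. It had 42.2 and 41.9 TPM with vehicle and 53.7 and 51.8 TPM with TGFbeta. The replicates lay close together and the groups apart, but the log2 change of 0.32 (SE 0.13) did not pass (limma adjusted p = 0.197). Lactate leaves through Slc16a3 (MCT4), which had 22.2 and 34.2 against 50.9 and 34.5 TPM. The TGFbeta 2 value was almost that of Vehicle 2, and the log2 change of 0.59 (SE 0.27, limma adjusted p = 0.245) ranged from 0.29 without Vehicle 1 to 0.89 without Vehicle 2. Slc16a1 (MCT1), which carries lactate both ways, lay between 4.99 and 6.85 TPM with overlapping groups. In every library Slc16a3 was the more abundant of these transporters, at 76.4% to 89.7% of their sum.

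Hexokinases trap glucose as its phosphate. Hk2, the inducible form, had 28.4 and 17.6 TPM with vehicle and 42.4 and 45.7 TPM with TGFbeta. Both TGFbeta libraries were higher than both vehicle libraries, and the mean was 1.92 times that of vehicle. Its log2 change of 0.94 (SE 0.23) was the highest of the group but missed the threshold (limma adjusted p = 0.0712). It passed after quantile normalization (1.08, limma adjusted p = 0.0467), after median scaling (1.10, 0.0372), with protein-coding genes alone (0.0240) and where a gene needed a mean of 5 TPM (0.0294). The setting of protein-coding genes alone, here and below, also left out genes with the same values as another gene in every library. Without Vehicle 2 the log2 change of Hk2 was 0.62 and without Vehicle 1 it was 1.27, so its size rested on which vehicle library was used. Hk1, the general form, was more abundant in every library, with 82.3, 87.2, 84.6 and 72.6 TPM (Vehicle 1, Vehicle 2, TGFbeta 1, TGFbeta 2). The share of Hk2 in the pair was 25.6% and 16.8% with vehicle and 33.4% and 38.6% with TGFbeta.

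Phosphofructokinase commits sugar to glycolysis, with a muscle form (Pfkm), a liver form (Pfkl) and a platelet form (Pfkp). Pfkm (ENSMUSG00000033065.14, chr15:98092589-98132451, plus strand) had 34.7 and 37.4 TPM with vehicle and 19.4 and 18.3 TPM with TGFbeta. It fell from 36.1 ± 1.94 to 18.8 ± 0.768 TPM (SD, n = 2 each), with a log2 change of -0.90 (SE 0.14, limma adjusted p = 0.0269). Pfkl had 73.4 and 78.4 against 57.1 and 52.0 TPM (log2 change -0.47, limma adjusted p = 0.0988). Pfkp had 61.9 and 57.1 against 45.5 and 46.0 TPM (log2 change -0.37, limma adjusted p = 0.156). All 3 were lower in both TGFbeta libraries than in both vehicle libraries, where 39.8% of all tested genes were. Only Pfkm passed. The summed TPM of the family was 170.0 and 173 with vehicle and 122 and 116 with TGFbeta, of which Pfkm took 20.4% and 21.6% and then 15.9% and 15.7%. The call of Pfkm was also lost when TGFbeta 1 (limma adjusted p = 0.0954) or TGFbeta 2 (0.105) was left out. With the replicate number as a block it was 0.0536.

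Since Pfkm is known from muscle, cardiomyocyte markers were set beside it. The 8 markers summed to 69.7 and 112 TPM with vehicle and to 51.5 and 54.2 TPM with TGFbeta, most of it Tnnt2 and Tnni3. The defining markers Myh6 and Actc1 did not exceed 0.394 TPM in any library. Limma called 0 of 3 tested markers, where 5.92% of all tested genes were called. Tnnt2 (46.97 and 81.4 against 35.2 and 34.6 TPM) and Tnni3 (14.8 and 17.6 against 7.62 and 10.9 TPM) had an unadjusted p under 0.05. Their part in the fall of Pfkm was not tested. Pgam2, the muscle phosphoglycerate mutase and the only call among 19 tested genes of a further list of glycolytic isozymes and sugar transporters (4.38% of all tested genes were called lower), fell from 17.4 and 13.997 to 5.82 and 7.34 TPM (log2 change -1.14, limma adjusted p = 0.0343). Its call was lost without each library in turn, with the replicate block and with every gene above 0.

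The other enzymes of the upper route did not pass. Gpi1, which makes fructose phosphate, and Tpi1, which interconverts the triose phosphates, had log2 changes of -0.14 and -0.30 (limma adjusted p = 0.599 and 0.216). Aldolase was nearly all Aldoa (99.5% to 99.7% of the family in every library), with 776, 951, 791 and 755 TPM in the order Vehicle 1, Vehicle 2, TGFbeta 1 and TGFbeta 2. Those groups overlapped. Aldoc, the brain form, lay between 2.44 and 3.86 TPM.

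The Pfkfb enzymes make and break down the sugar phosphate that activates phosphofructokinase. None of the 4 was called by limma (1 at an unadjusted p under 0.05), against 5.92% and 24.5% of all tested genes. That 1 was Pfkfb4, with 24.6 and 33.8 TPM with vehicle and 19.7 and 19.3 TPM with TGFbeta (log2 change -0.54, SE 0.19, limma adjusted p = 0.149). Pfkfb3, the form with the strongest kinase activity, had 24.7 and 18.4 against 20.6 and 21.3 TPM, with overlapping groups. Pfkfb2 lay between 11.7 and 14.4 TPM and Pfkfb1 between 2.996 and 4.96 TPM.

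In the lower route, Eno2, the enolase first known from neurons (ENSMUSG00000004267.16, chr6:124760053-124769673, minus strand), had 36.7 and 45.9 TPM with vehicle and 15.4 and 18.1 TPM with TGFbeta. It fell from 41.3 ± 6.5002 to 16.8 ± 1.89 TPM (SD, n = 2 each), 2.46-fold lower, with a log2 change of -1.25 (SE 0.18, limma adjusted p = 0.0208). The general enolase Eno1 had 921 and 1035 TPM with vehicle and 1025 and 918 TPM with TGFbeta, with overlapping groups (log2 change -0.01, SE 0.15). Eno2 was therefore 3.83% and 4.25% of enolase TPM with vehicle and 1.48% and 1.94% with TGFbeta, and the enolase sum stayed between 936 and 1080.4 TPM. The Eno2 call was also lost when TGFbeta 1 (limma adjusted p = 0.0894) or TGFbeta 2 (0.0637) was left out.

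The other genes of the lower route were among the most abundant of the table and did not pass. Gapdh, the triose phosphate dehydrogenase, had 1079.5 and 1241 TPM with vehicle and 1204 and 1292 TPM with TGFbeta (log2 change 0.11, SE 0.16, limma adjusted p = 0.725). Its transcript has 75 near-identical copies with rows of their own (at least 95% identity over at least 200 bases), which held 11.0031% of the TPM of Gapdh and copies together, so its level depends on how reads were divided. No other member had copies holding more than 5.31% (Bnip3). Pkm, pyruvate kinase, had 895 and 1116 against 926 and 812 TPM. Pgk1, phosphoglycerate kinase, had 237 and 223 against 232 and 274 TPM. Pgam1, the general phosphoglycerate mutase, had 211 and 230.1 against 256 and 279 TPM (log2 change 0.28, limma adjusted p = 0.266). Summed over 17 enzymes from hexokinase to lactate dehydrogenase, the route took 0.579% and 0.661% of library TPM with vehicle and 0.595% and 0.586% with TGFbeta. The TGFbeta values lay between those of the vehicle libraries.

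Lactate dehydrogenase was mostly Ldha, the form favouring lactate, with 599.8 and 639 TPM with vehicle and 569 and 586 TPM with TGFbeta (log2 change -0.10, SE 0.14). Ldhb, the heart form, had 29.7 and 40.7 against 11.2 and 18.1 TPM. Both TGFbeta values were lower, 2.40-fold in the mean, but the replicates were uneven and the log2 change of -1.23 (SE 0.27) missed the threshold (limma adjusted p = 0.0533). It passed among genes averaging 5 TPM or more (0.0175), with protein-coding genes alone (0.0135), with robust eBayes (0.0381) and with the replicate block (0.0238). Ldhb was 4.72% and 5.99% of the pair with vehicle and 1.92% and 3.01% with TGFbeta.

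All 4 pyruvate dehydrogenase kinase genes had log2 changes below 0, where 64.8% of all tested genes did. Pdk2, the widely expressed form (ENSMUSG00000038967.13, chr11:95026258-95041354, minus strand), had 16.8 and 18.8 TPM with vehicle and 9.29 and 9.21 TPM with TGFbeta. It fell from 17.8 ± 1.41 to 9.25 ± 0.0617 TPM (SD, n = 2 each), with a log2 change of -0.87 (SE 0.16, limma adjusted p = 0.0382). Of the 4 calls it was lost under the most settings (8 of 14), among them quantile normalization (-0.71, limma adjusted p = 0.0750), median scaling (-0.72, 0.0669), the replicate block (0.0708) and leaving out each TGFbeta library (0.131 and 0.142). Pdk1, a known HIF target, had 6.32 and 7.21 against 3.65 and 4.19 TPM (log2 change -0.66, SE 0.19, limma adjusted p = 0.104). Pdk4, which fasting induces, had 9.60 and 11.3 against 6.19 and 7.69 TPM (log2 change -0.53, SE 0.19, limma adjusted p = 0.165). For both genes the TGFbeta libraries lay below both vehicle libraries, where 39.8% of all tested genes did so. Pdk3, the most abundant kinase in every library, had 32.0 and 24.7 against 21.6 and 25.9 TPM, and its groups overlapped. The summed TPM of the 4 was 64.7 and 62.0 with vehicle and 40.8 and 47.0 with TGFbeta.

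Among 11 tested genes for pyruvate entry to mitochondria, limma called 1 lower and 0 higher (2 at an unadjusted p under 0.05, both lower), against 4.38% and 1.54% of all tested genes. It was Pcx, which encodes pyruvate carboxylase, with 55.3 and 48.5 TPM with vehicle and 28.5 and 23.8 TPM with TGFbeta (log2 change -0.96, limma adjusted p = 0.0293). This call was lost without each library in turn, without an intensity trend and with every gene above 0.

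**Figure D3:**
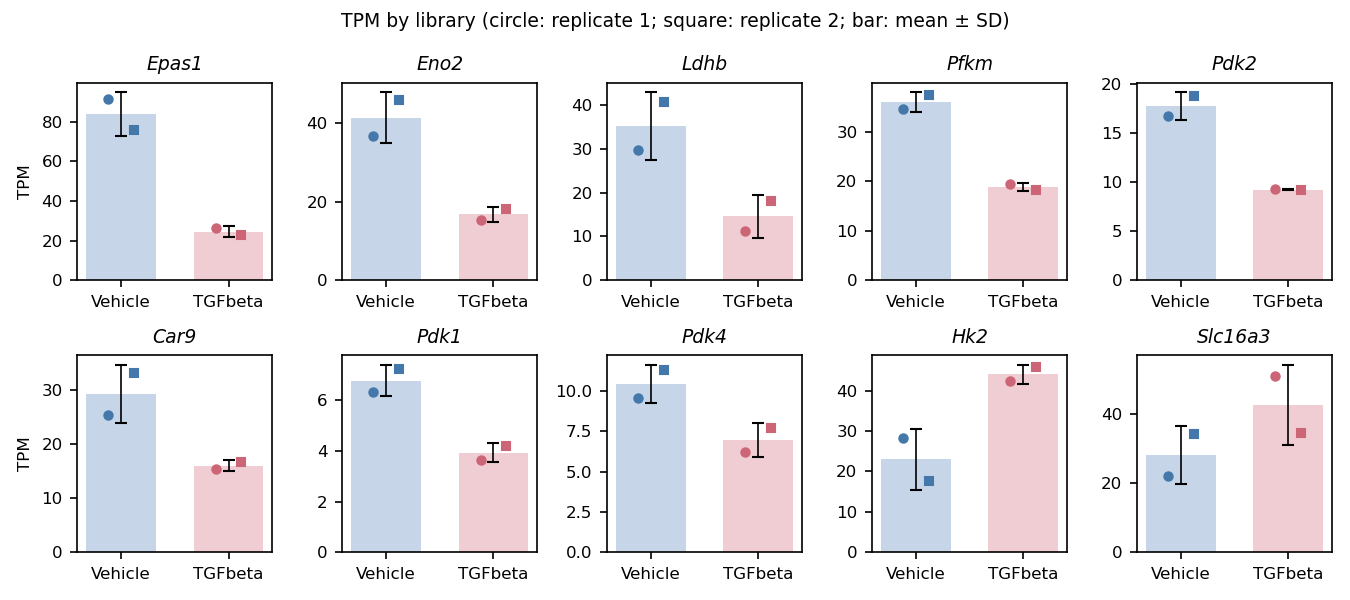
TPM in each library for the 10 genes whose TGFbeta libraries both lay on the same side of both vehicle libraries with a ratio of mean TPM of at least 1.5; bars are means with SD over 2 libraries. The 8 lower genes begin with Epas1; Hk2 and Slc16a3 are higher, and for Slc16a3 TGFbeta 2 (34.5 TPM) barely exceeds Vehicle 2 (34.2 TPM).

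**Figure D4:**
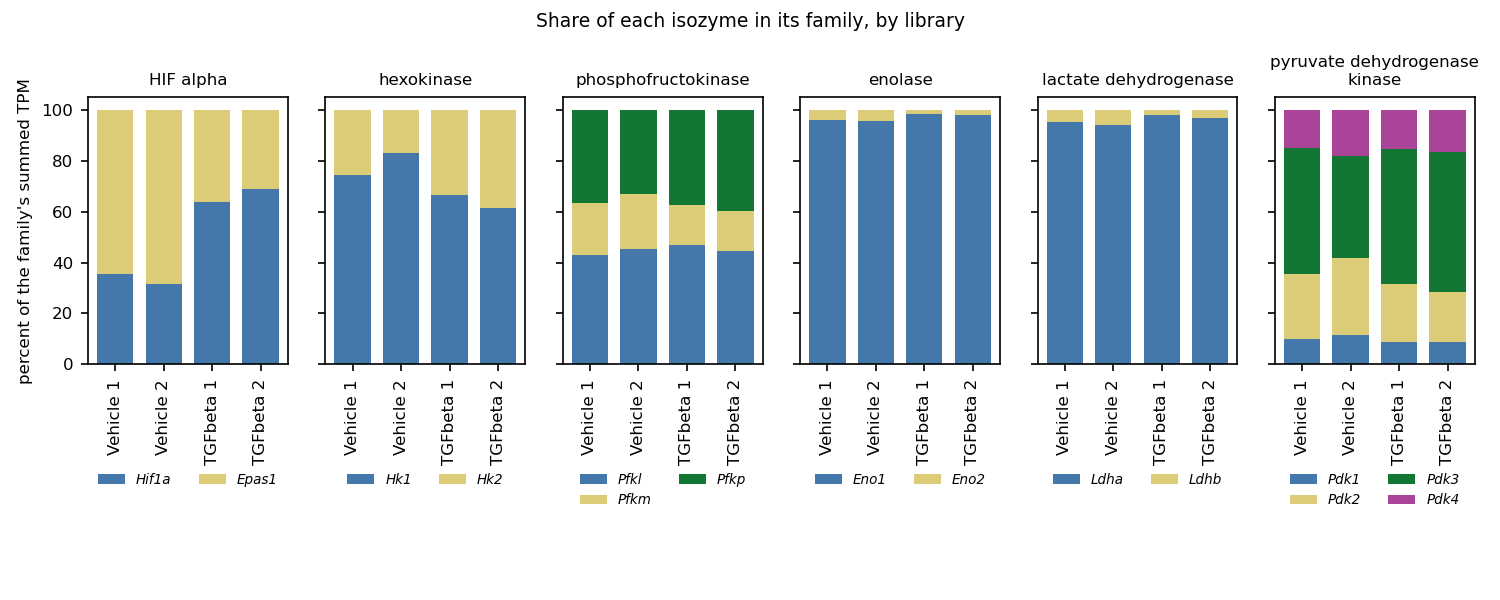
Share of each isozyme in the summed TPM of its family (percent, stacked to the whole) in each library. Hif1a goes from 35.6% and 31.4% with vehicle to 63.7% and 68.9% with TGFbeta, while Eno1 and Ldha make up over 94% of their families in every library.

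Of the 5 known hypoxia targets in the group, limma called 0 (1 at an unadjusted p under 0.05, Car9). Over all tested genes 5.92% were called and 24.5% had an unadjusted p under 0.05, so these counts do not set the targets apart. Car9, a surface carbonic anhydrase and a common marker of hypoxia, had 25.5 and 33.1 TPM with vehicle and 15.3 and 16.7 TPM with TGFbeta. Both TGFbeta values were lower, but the log2 change of -0.82 (SE 0.18) missed the threshold (limma adjusted p = 0.0543). It passed among genes averaging 5 TPM or more (0.0247), with protein-coding genes alone (0.0209) and with robust eBayes (0.0395). Bnip3l, a receptor for the removal of mitochondria, had 60.4 and 59.0 against 46.0 and 52.0 TPM (log2 change -0.28, limma adjusted p = 0.266), and the related Bnip3 had 21.6 and 20.1 against 16.7 and 19.0 TPM. Ndrg1, a stress-response gene, lay between 31.4 and 42.3 TPM with overlapping groups. Ankrd37 was at 3.29 and 3.40 TPM with vehicle but at 1.94 and 5.11 TPM with TGFbeta, so its replicates parted on either side of the vehicle values.

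In a further list of genes known to be induced by hypoxia, 3 of 26 tested fell, 1 rose and 22 did not pass, where 4.38% of all tested genes were called lower and 1.54% higher. The median log2 change was -0.17, against -0.13 over all tested genes. Adm, the gene of the vasodilator peptide adrenomedullin, had 1097 and 801 TPM with vehicle and 193 and 204 TPM with TGFbeta (log2 change -2.23, SE 0.18, limma adjusted p = 0.00633). Angptl4, an inhibitor of lipoprotein lipase, fell from 15.3 and 16.6 to 6.99 and 8.49 TPM, and Zfp395 from 5.59 and 7.08 to 2.33 and 2.44 TPM. Ddit4, an inhibitor of mTOR signalling, rose from 65.2 and 62.0 to 115 and 100.7 TPM (log2 change 0.75, limma adjusted p = 0.0375). Vegfa, the classic HIF target for vessel growth, had 377 and 358 against 474 and 424 TPM (log2 change 0.29, limma adjusted p = 0.265). The call of Adm was lost without either vehicle library and with every gene above 0. Those of Angptl4 and Zfp395 were also lost without each TGFbeta library, after both scalings and with the replicate block, and that of Ddit4 without each TGFbeta library, with the block and without an intensity trend. Among 14 tested regulators of glycolysis, 1 rose and 0 fell, against 1.54% and 4.38% of all tested genes. It was Myc, a transcription factor that drives glycolytic genes, which rose from 22.1 and 17.8 to 46.2 and 39.1 TPM (log2 change 1.06, limma adjusted p = 0.0284). That call was lost without each library in turn and with every gene above 0.

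HIF is known to bind the core letters ACGTG and GCGTG, so these were counted in promoters, and bases are shown for the member with the highest log2 change, Hk2, and for Ldhb, Pfkm and Pdk2, which are among the lowest with a promoter in the table. Eno2, lower than these, is not printed because its window overlaps an annotated UTR of the neighbouring gene Lrrc23. RefSeq promoters (GRCm38.p6, 250 bases before and 50 after the start) matched 35 of the 38 symbols, with 55 windows; Epas1, Bnip3l and Ndrg1 had none. ACGTG, on either strand, was in 28 of the 55 windows (50.9%), against 24.1% of windows of all tested genes and 19.6% of all 32851 windows. GCGTG was in 30 (54.5%), against 47.6% and 32.4%. In the 250 bases before the start, the median GC content was 59.2% both for these windows and for those of tested genes. The group was chosen to include known hypoxia response genes. Windows of the same gene can also overlap and share a match, as for Aldoa. These shares are therefore descriptions and not tests. In the 250 bases before the start, 3 of 4 windows of Pfkm, 1 of 2 of Pdk2 and the single one of Hk2 held either motif, while the single window of Ldhb held GCGTG and that of Eno2 held neither. The 250 bases before the start follow 5′ to 3′ on the gene's strand, with ACGTG and GCGTG of either strand in capitals. The capitals CACGTG hold ACGTG on both strands and are also an E-box, the letters that Myc binds. The most upstream window is shown for Pfkm (of 4) and Pdk2 (of 2); the other one of Pdk2 held neither motif.
Hk2, chr6:82774455-82774704 (-): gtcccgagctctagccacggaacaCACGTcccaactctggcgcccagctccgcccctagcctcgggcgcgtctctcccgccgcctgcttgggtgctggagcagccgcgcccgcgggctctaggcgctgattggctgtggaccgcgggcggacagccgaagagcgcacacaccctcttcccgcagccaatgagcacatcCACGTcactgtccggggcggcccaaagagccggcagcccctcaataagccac
Ldhb, chr6:142507958-142508207 (-): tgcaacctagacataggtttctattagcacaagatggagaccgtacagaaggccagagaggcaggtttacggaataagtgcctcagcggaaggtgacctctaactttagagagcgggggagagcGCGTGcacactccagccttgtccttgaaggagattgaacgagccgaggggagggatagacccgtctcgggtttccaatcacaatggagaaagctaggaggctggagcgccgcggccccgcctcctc
Pfkm, chr15:98092339-98092588 (+): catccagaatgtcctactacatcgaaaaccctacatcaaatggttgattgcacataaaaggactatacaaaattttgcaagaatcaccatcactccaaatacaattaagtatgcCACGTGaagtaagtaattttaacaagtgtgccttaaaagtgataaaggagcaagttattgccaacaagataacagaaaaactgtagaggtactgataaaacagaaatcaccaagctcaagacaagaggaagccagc
Pdk2, chr11:95041372-95041621 (-): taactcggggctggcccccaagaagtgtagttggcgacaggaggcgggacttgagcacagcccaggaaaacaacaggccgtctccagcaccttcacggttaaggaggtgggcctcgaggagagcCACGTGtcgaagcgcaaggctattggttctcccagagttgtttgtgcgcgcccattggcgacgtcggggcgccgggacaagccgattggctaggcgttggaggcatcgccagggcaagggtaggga

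HuR is known to bind U-rich 3′ untranslated regions (UTRs), so the letters TTTNTTT (overlaps counted, sense strand) were counted in the longest annotated 3′ UTR of each gene (GENCODE M21, GRCm38). They occurred in 24 of the 38 genes (63.2%), against 68.6% of tested genes with a 3′ UTR, at a median of 1.04 per kilobase against 1.77. None were found in the short 3′ UTRs of the abundant enzymes: Aldoa (185 bases), Gapdh (179), Eno1 (324), Pkm (541) and Ldha (486). Of tested genes with a 3′ UTR of like length (from 80% of its length to the inverse of that), 21.1%, 20.4%, 35.1%, 51.5% and 46.0% held the letters. Hk2 had 22 in 2285 bases, and 7.46% of genes of like length had as many. Eno2 had 13 in 1238 bases (7.65% had as many), Hif1a 14 in 1827 (12.9%), Pfkm 3 in 392 (15.3%) and Epas1 6 in 2308 (54.4%). Pdk2 had 0 in 924 bases, where 71.1% of genes of like length had some. Eno2 and Pdk2, which both fell, thus differed in these letters. A match is a description and not a measured binding site. The 30 bases with the most matches are printed for 5 genes, with the matched letters in capitals.
Epas1, chr17:86832045-86832074 (+): tcaaaagcaaaactgagtTTTGTTTTGTTT
Hif1a, chr12:73945999-73946028 (+): tttaaaatgcaccttTTTATTTATTTATTT
Hk2, chr6:82726657-82726686 (-): cttttcaaTTTCTTTTTTTTTTTTTTTTTT
Pfkm, chr15:98132333-98132362 (+): ttcctaaaaataagcTTTATTTATTTCTTT
Eno2, chr6:124760760-124760789 (-): ttaTTTATTTATTTATTTATTTATTTATTT

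**Figure D5:**
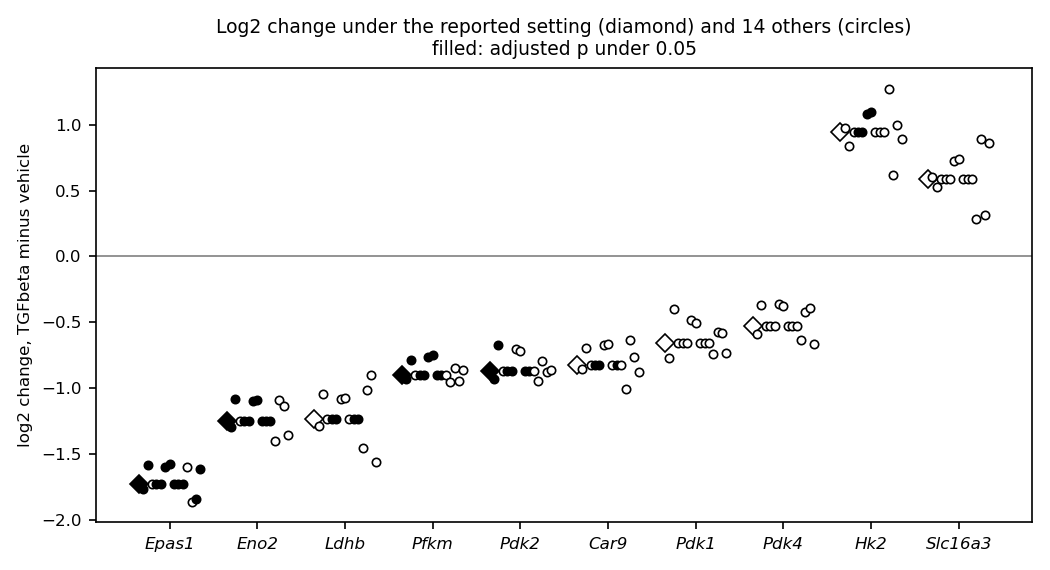
Log2 change (TGFbeta minus vehicle) of the 10 genes with separated libraries and a ratio of at least 1.5, as reported (diamond) and under 14 other settings (circles); filled symbols have an adjusted p under 0.05. Signs do not change for any of the 10, and Epas1 keeps its call in the largest number of settings (all but 3).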

How the data were processed

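RNA was sequenced in 4 libraries, 2 per treatment. The deposited values are TPM per gene symbol, per the file headers, made by the authors; each library sums to 1000000. The aligner, quantifier and build were not given in the sources used here. Read numbers cannot be had from TPM, so depth is unknown and counting intervals are not possible. Per the labels' protocols, 1 ug of RNA entered each library.

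Genes averaging 1 TPM or more were compared as log2(TPM + 1) with limma 3.58.1 in R 4.3.3 (lmFit, then eBayes with a trend on intensity). Treatment was the single term, tests were two-sided and p-values were adjusted by Benjamini-Hochberg over 15815 genes. Fold values are ratios of mean TPM; the pseudocount of 1 draws log2 changes of low genes towards 0. Whether replicates were separate animals or cultures is not said in the labels, so p-values measure only the spread between these samples.

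All 4 TPM values are printed for called genes, for genes with separated libraries and a ratio of at least 1.5, and for the 5 most abundant; other genes printed in full were chosen after their values were seen. From each of the 8 further lists the called genes are named. The members and lists were chosen with earlier results of these data known. Positions and 3′ UTRs come from GENCODE M21 (GRCm38) by symbol, promoters from RefSeq, and copies from blastn 2.17.0.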

Additional observations from a re-analysis of the deposited data

How the results depend on the processing

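Of 515 log2 changes of the tested genes under the 14 alternatives, 459 kept their sign and side of the threshold, 22 lost a call, 11 gained one and 23 changed sign; none of the sign changes was in a called gene. With a mean TPM of at least 5, Aldoc, Pfkfb1 and Ankrd37 were not tested and have no value, nor has Zfp395 of the further lists. With every gene above 0 tested, all counts of calls were 0 (limma, 4348 genes at an unadjusted p under 0.05). With 1 library left out, 0 to 1 genes of the group were called lower, 0 genes of the further lists higher and 0 to 2 lower, and of all genes 0 to 65 were called higher and 0 to 138 lower. The count of higher genes in the group was 1, Hk2, with a mean TPM of at least 5, with protein-coding genes alone, after quantile normalization and after median scaling. The median of the group was -0.15 with a pseudocount of 5, -0.0725 after quantile normalization and -0.0381 after median scaling, where the median of all genes was -0.0847, 0.0153 and 0.0268; that median was -0.0799 with every gene above 0. Of all genes, 433 were called higher and 1302 lower with protein-coding genes alone, 421 higher and 401 lower after median scaling, 333 higher and 401 lower after quantile normalization, and 437 lower without a trend. Genes of the further lists called higher numbered 4 with a mean TPM of at least 5, 5 with protein-coding genes, 4 after median scaling, 1 without a trend and 4 with robust eBayes; lower were 16 with protein-coding genes and 4 after quantile normalization.

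The labels do not say that the replicate number pairs libraries, so it was not taken as a pairing. Same-numbered libraries did not deviate together (r = -0.05 across tested genes, which are not independent replicates). With 2 libraries per treatment this cannot exclude a pairing. With the replicate block 3 genes of the group were called lower and 0 higher, 445 of all genes lower, and 1 gene of the further lists higher. Signs turned after median scaling for Aldoa (0.00243), Ankrd37 (0.12), Eno1 (0.14), Gpi1 (0.0123), Hk1 (0.0449), Ldha (0.0539), Ndrg1 (0.14) and Pfkfb3 (0.13). After quantile normalization they turned for Ankrd37 (0.14), Gapdh (-0.00614), Hk1 (0.0167), Ndrg1 (0.13) and Pfkfb3 (0.12), and with a pseudocount of 5 for Ankrd37 (0.00521). Leaving out 1 library gave a sign change in Ankrd37 (-0.56 to 0.49), Eno1 (-0.0933 to 0.0739), Hif1a (-0.0677 to 0.46), Ndrg1 (-0.22 to 0.20), Pfkfb3 (-0.23 to 0.18) and Slc16a1 (-0.12 to 0.27). The cause was not tested. Depth is unknown.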

Other observations

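Of 10 tested genes of glycogen and gluconeogenesis 3 fell and 0 rose, where 4.38% of all tested genes were called lower and 1.54% higher. The 3 were the glycogen phosphorylases. Pygm, the muscle form, had 16.7 and 16.9 TPM with vehicle and 7.73 and 4.97 TPM with TGFbeta (log2 change -1.30, limma adjusted p = 0.0329). Pygl, the liver form, had 20.8 and 16.6 against 9.19 and 7.68 TPM (-1.06, limma adjusted p = 0.0364), and Pygb, the brain form, 124.8 and 121 against 78.8 and 68.2 TPM (-0.74, limma adjusted p = 0.0390). All 3 calls were lost without each library in turn, with every gene above 0 and after quantile normalization, and that of Pygb also after median scaling, with the replicate block and without a trend. The median of the list was 0.13.

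Over all tested genes limma called 5.92%, 24.5% had an unadjusted p under 0.05 and the median log2 change was -0.13. Of 16 tested genes of the tricarboxylic acid cycle limma called 0 (3 at an unadjusted p under 0.05), with a median log2 change of -0.17. Of 7 genes of the pentose phosphate pathway it called 0 (2 at an unadjusted p under 0.05), with a median of -0.23 and a summed level of 947 and 1073 TPM with vehicle and 856 and 782 TPM with TGFbeta.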
